A study of Homo sapiens with 3 samples.

Results

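The KLF genes encode zinc-finger transcription factors that share a GC-box binding domain with SP1. The 10 genes KLF2, KLF3, KLF4, KLF5, KLF6, KLF9, KLF10, KLF11, KLF13 and KLF16 were listed by name, with earlier results of these data known, out of 20037 protein-coding genes on 24 chromosomes. All 10 were found in the RefSeq table. The data are CUT&RUN libraries of H1299, a human lung cancer line in long use, labelled as lung adenocarcinoma, with no treatment or genotype in the labels. In CUT&RUN a nuclease tethered by an antibody cuts the DNA around the bound protein or mark, and the released fragments are sequenced. The series holds 3 libraries, 1 each for SP1, for H3K27ac (acetylation of lysine 27 on histone H3, found at active promoters and enhancers) and for control IgG. IgG values were not used here, and the values below therefore have no antibody control beside them.

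SP and KLF proteins bind through a set of zinc fingers at the carboxyl end, and both families recognise GC boxes and the related CACCC element. The families therefore can meet at the same promoters, where SP proteins mostly activate and KLF proteins activate or repress according to the cofactor they recruit. KLF9, KLF10, KLF11, KLF13 and KLF16 bind the corepressor SIN3A, KLF3 binds the corepressor CtBP, and KLF2, KLF4, KLF5 and KLF6 are known mainly as activators that bind histone acetyltransferases. Several act in the lung: KLF2 in late lung development and vessels, KLF4 and KLF5 in epithelial differentiation and growth, and KLF6 in the response to injury.

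A summit is the single base at which a peak is highest in the authors' deposited list. Its score, also the authors', is on the −log10 scale of the peak caller's p or q, and which of them it is stays unstated in the files. Median scores were 6.17 over 5570 SP1 summits and 5.01 over 3201 H3K27ac summits. The deposited regions carry a rank only, 1 being the best, of 2356 SP1 and 2710 H3K27ac regions. Each antibody had a single library, so the values have no replicates and none could be tested. The read depth is unknown. With 10 genes, each gene moves a share by 10 percentage points. RefSeq symbols, spans, starts and sequences are those of GRCh38.p14, and the summits are on hg38, the same assembly.

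Sequence at the annotated starts comes first, because GC boxes there are the element that SP1 and KLF proteins bind. The RefSeq promoter table matched 8 of the 10 genes with 10 windows of 300 bases each (250 before a start and 50 from it), since KLF5 and KLF11 each had 2 starts. KLF3 and KLF10 had no entry. The lines below give the 250 bases before the start of 4 genes, from KLF13 at chr15:31326585-31326834 (plus strand), KLF16 at chr19:1863580-1863829 (minus strand), KLF2 at chr19:16324576-16324825 (plus strand) and KLF9 at chr9:70414658-70414907 (minus strand). Capitals mark GC boxes, searched as GGGCGG on both strands, so that the reverse strand reads CCGCCC. KLF13 is shown as a gene with an SP1 summit beside its start, KLF16 and KLF2 as genes dense in boxes with no summit beside the start, and KLF9 as the gene with none of either.
KLF13: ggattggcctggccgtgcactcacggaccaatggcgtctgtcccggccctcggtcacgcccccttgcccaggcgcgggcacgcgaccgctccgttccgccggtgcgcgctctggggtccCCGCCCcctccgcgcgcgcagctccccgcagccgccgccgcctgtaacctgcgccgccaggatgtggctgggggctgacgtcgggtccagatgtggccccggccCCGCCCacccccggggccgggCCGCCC
KLF16: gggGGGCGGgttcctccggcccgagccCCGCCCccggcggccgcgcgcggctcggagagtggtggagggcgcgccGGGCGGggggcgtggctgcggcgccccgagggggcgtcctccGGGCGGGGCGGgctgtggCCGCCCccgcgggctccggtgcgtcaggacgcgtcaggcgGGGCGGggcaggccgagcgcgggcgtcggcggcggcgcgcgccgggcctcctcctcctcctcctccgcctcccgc
KLF2: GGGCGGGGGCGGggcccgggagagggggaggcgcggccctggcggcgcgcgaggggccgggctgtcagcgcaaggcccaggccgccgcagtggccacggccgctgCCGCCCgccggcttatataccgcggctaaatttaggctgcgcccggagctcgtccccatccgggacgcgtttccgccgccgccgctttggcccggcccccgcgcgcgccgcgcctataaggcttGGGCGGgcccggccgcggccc
KLF9: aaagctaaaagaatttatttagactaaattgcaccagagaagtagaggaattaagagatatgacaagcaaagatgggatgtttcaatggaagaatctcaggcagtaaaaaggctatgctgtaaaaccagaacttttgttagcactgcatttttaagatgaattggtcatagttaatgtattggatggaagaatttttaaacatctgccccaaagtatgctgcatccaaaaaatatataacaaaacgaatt

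Counted over the whole 300-base windows, KLF16 held 7 GC boxes, KLF2 held 6, KLF4 held 4, KLF13 held 3 and KLF6 held 2. Overlapping or abutting boxes were each counted, so that 1 unbroken run of capitals in KLF16 and 1 in KLF2 holds 2 boxes. KLF11 had 2 boxes at its lower-coordinate start and 7 at the other. KLF5 had none at its first start and 2 at its second, and KLF9 had none. In all, 7 of the 8 genes held a box in at least 1 window, against 64.3% of the 15843 protein-coding genes with a window. The shares of all genes given here were not matched for base composition. It spanned nearly the full range, but most KLF windows were rich in G and C. All but the KLF9 window and the first KLF5 window were at or above 72.0% of the windows of protein-coding genes. The KLF16 window was 86.0% G or C, at or above 99.9% of the windows of protein-coding genes, and the KLF9 window was 32.7%, at or above 1.18% of them. The longer box GGGGCGGGG was in 6 of the 8 genes, against 26.2% of all. CACCC was in 3 of the 8, against 69.0%. A match is a string of letters in a window and says nothing of binding.

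**Figure D1:**
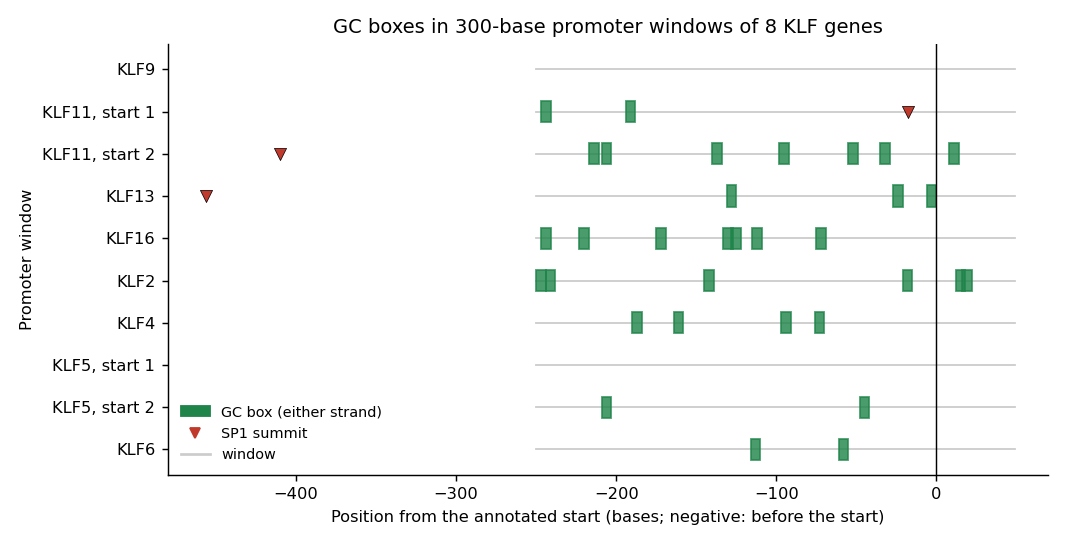
GC boxes (green, GGGCGG on either strand) in the 10 promoter windows of 8 KLF genes, by position in bases from the annotated start, with SP1 summits (red triangles) within the plotted range. KLF16 with 7 boxes and KLF2 with 6 have no summit in the range, and the KLF11 and KLF13 summits lie at 18, 410 and 456 bases before a start.

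Most windows with a GC box had no SP1 summit near the start, among KLF genes as among all protein-coding genes. Of the 8 KLF windows with a box, 3 had an SP1 summit within 1000 bases of the start. They were both starts of KLF11, which share the same summit, and the start of KLF13. Over all protein-coding genes, 19.6% of windows with a box and 6.13% of windows without one had such a summit. Read the other way, a box was in 80.4% of the 3040 windows with an SP1 summit and in 52.4% of the 19159 without. KLF2, KLF4, KLF5, KLF6 and KLF16 are the 5 genes that held a box and had no SP1 summit within 1000 bases of a start. The share of all genes of that kind is not given here, and nothing is read from the 5.

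SP1 summits were called at the ends of KLF11 and KLF13 and in or near KLF9 and KLF16, and nowhere within 100 kb of the other 6 genes. A gene end is either end of the RefSeq span, within 1000 bases. The 2 of 10 KLF genes with an SP1 summit there compare with 13.7% of protein-coding genes. Counted from annotated starts, 2 of 8 KLF genes had one, against 14.9%. Within 10 kb of the span the count was 4 of 10, against 25.5%. It stayed at 4 of 10 within 50 kb (41.1%) and within 100 kb (52.6%). The KLF share thus lay above the share of all genes close to the span and below it at 100 kb, by fewer than 2 genes of the 10 either way. The median distance from the span to the nearest SP1 summit was 139 kb for the KLF genes and 85.7 kb for all protein-coding genes.

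**Figure D2:**
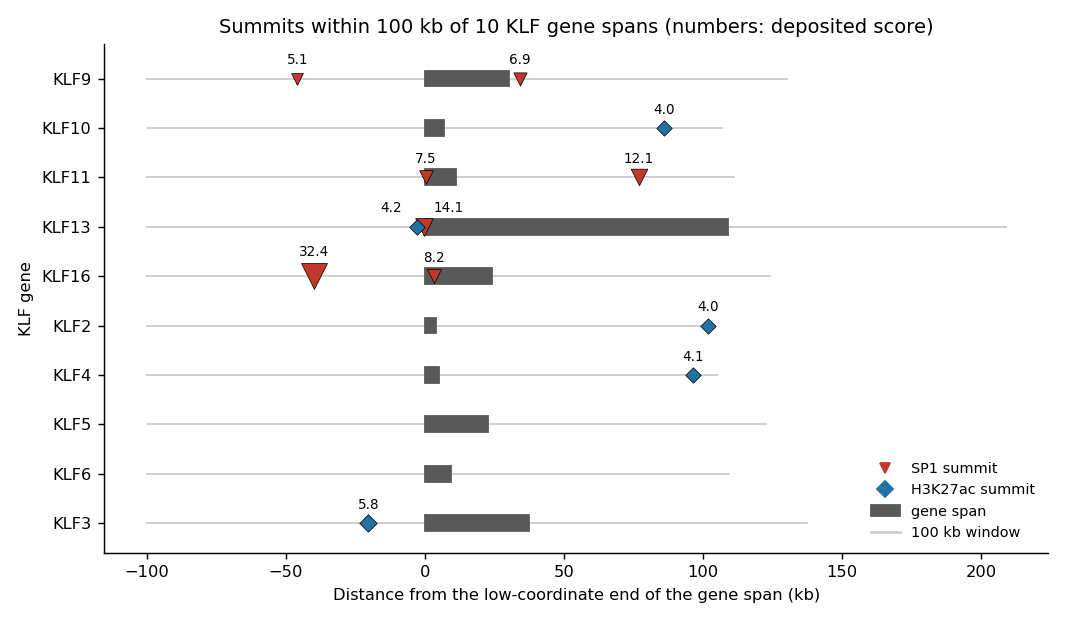
Every SP1 summit (red triangles, 7) and H3K27ac summit (blue diamonds, 5) within 100 kb of the 10 KLF gene spans, in kb from the low-coordinate end of each span, with the deposited score beside each mark and mark size rising with it. KLF9, KLF11, KLF13 and KLF16 have SP1 summits, KLF2, KLF3, KLF4, KLF10 and KLF13 have H3K27ac summits, and KLF5 and KLF6 have neither.

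KLF13 had the highest-scoring SP1 summit at an end. KLF13, known for its part in chemokine expression of T cells, spans 31326835 to 31435665 on chromosome 15. Its summit at 31326379 scored 14.1, which placed it 549 of 5570, in the top 9.86%. It lay 456 bases before the annotated start, outside the printed window, whose boxes begin 325 to 450 bases from it. The upper quartile of the 2457 SP1 summits at gene ends was 11.7, and this one lay above it. No other SP1 summit was called in the 100 kb on either side or in the gene.

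KLF11 encodes a TGF-beta inducible repressor that also acts in pancreatic beta cells. It spans 10043550 to 10054836 on chromosome 2. Its SP1 summit at 10043811 lay 261 bases inside the span, 18 bases before one annotated start and 410 bases before the other. It was the only one of the 7 SP1 summits that fell inside a promoter window. The score was 7.51, rank 1994 of 5570, between the lower quartile (6.12) and the median (8.17) of summits at gene ends. The 60 bases before the nearer start, at chr2:10043769-10043828 on the plus strand, show the summit base as a capital letter.
KLF11: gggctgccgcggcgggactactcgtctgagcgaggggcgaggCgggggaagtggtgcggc
The stretch holds no GGGCGG. Only exact matches were searched, so AGGCGG at the summit base, which differs in its first letter, was not counted. The nearest boxes in the windows of KLF11 stood 171 bases before the summit and 193 bases after it. Sequence between the windows was not read. A second summit in the 100 kb around KLF11 lay 65.7 kb beyond its high-coordinate end, at 10120522, with a score of 12.1. Its nearest gene end was that of RRM2, a subunit gene of ribonucleotide reductase, at 2046 bases.

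KLF9 and KLF16 had SP1 summits near the gene but not at an end. KLF9, induced by glucocorticoids and thyroid hormone, spans 70384604 to 70414657 on chromosome 9 and is read from the minus strand. Its closer summit, at 70418852, scored 6.92 and lay 4195 bases before the start, inside the span of the divergent transcript gene KLF9-DT. The other, at 70338722, scored 5.11, the lowest of the 7. It lay inside SMC5, a gene of a chromosome maintenance complex, and 45.9 kb from KLF9. The KLF9 window printed above, with no GC box, is thus not where SP1 was called.

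KLF16, named also for its action on dopamine receptor promoters, spans 1852399 to 1876536 on chromosome 19 and is read from the minus strand. A summit at 1855642 scored 8.18 and lay inside the span, 3243 bases from the low-coordinate end, where the gene stops, and 7937 bases past the start at 1863579. Whether this base is exon or intron cannot be read from spans. The second summit near KLF16, at 1812589, had the highest score of the 7, 32.4, and ranked 66 of 5570. It was 39.8 kb from KLF16 and 313 bases from an end of ATP8B3, a phospholipid flippase gene. KLF16 lay among 7 other protein-coding genes within 100 kb, the most of the 10, and 1 of these had an SP1 summit at an end.

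Of the 7 SP1 summits, 6 scored above the list's median of 6.17, and the range was 5.11 to 32.4 with a median of 8.18. For 4 of them the nearest protein-coding gene end belonged to the KLF gene itself. SP1 regions lay within 100 kb of 2 of 10 KLF genes, against 22.5% of all genes. They were the region of 199 bases inside KLF16 (rank 1282 of 2356) and the region of 199 bases inside SMC5 near KLF9 (rank 1936). The summits of KLF11 and KLF13 were in no SP1 region. Nor were the summits nearest to ATP8B3 (score 32.4) and RRM2 (12.1), or the closer summit of KLF9 (6.92). Absence from the region list is therefore not read as a weak SP1 call.

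**Figure D3:**
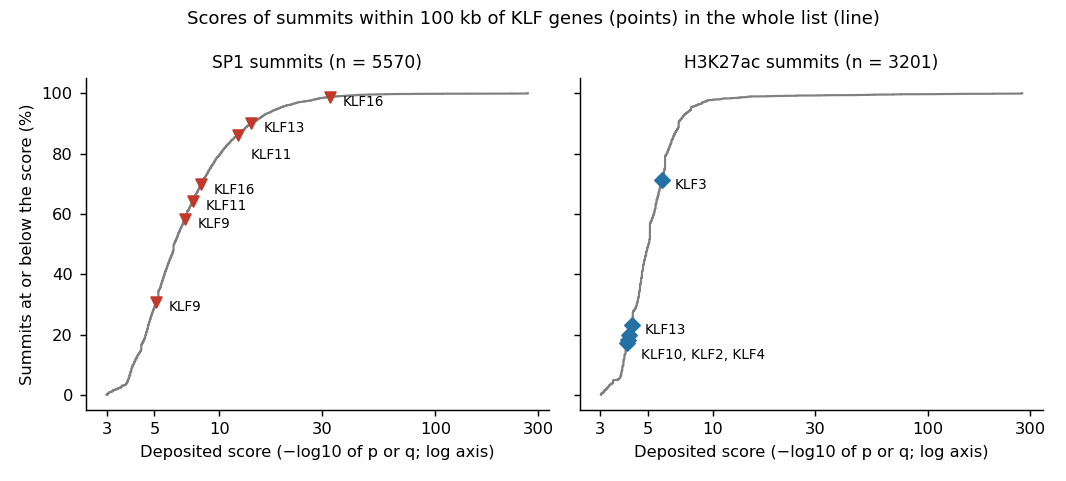
Scores of the 7 SP1 summits (left) and 5 H3K27ac summits (right) within 100 kb of KLF genes, as points on the cumulative distribution of all 5570 and 3201 scores (log axis). SP1 points reach from 5.11 to 32.4, and 4 of the 5 H3K27ac points lie between 4.01 and 4.21, below the list's median of 5.01.

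H3K27ac was called at no KLF gene end and at few gene ends of any kind. Its summits near KLF genes were mostly distant and low in score. Of 10 genes, 0 had an H3K27ac summit within 1000 bases of an end, against 0.848% of protein-coding genes, and 0 of 8 had one within 1000 bases of an annotated start, against 0.757%. At such shares a list of 10 genes is too short to tell 0 from the rest. In the whole list, 150 of 3201 H3K27ac summits lay within 1000 bases of a protein-coding gene end, against 2457 of 5570 SP1 summits. Few calls of this H3K27ac list thus lay at gene ends, although the mark is found at active promoters. Why this is so was not tested. The absence of calls at KLF gene ends is therefore not read as a lack of the mark there. Within 10 kb of the span 1 of 10 KLF genes had an H3K27ac summit, against 7.98%, and within 50 kb 2 of 10, against 15.7%. Within 100 kb the count was 5 of 10, against 24.0%. H3K27ac regions gave the same 5 of 10 genes, against 19.4%. Each of the 5 summits lay inside one of these regions, so both counts are of the same calls. The excess at 100 kb rested on KLF2, KLF4 and KLF10, whose summits were 79.1 to 97.9 kb away.

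The closest H3K27ac summit was that of KLF13, at 31323851, with a score of 4.21 and 2984 bases before the start. Its region of 336 bases, 31323679 to 31324014, ranked 815 of 2710. KLF3, a repressor that recruits CtBP, spans 38664199 to 38701517 on chromosome 4. Its H3K27ac summit at 38643880 had the highest score of the 5, 5.77, and lay 20.3 kb from the low-coordinate end, inside the span of the antisense gene KLF3-AS1. The region there was 219 bases long and ranked 1874 of 2710, the lowest-ranked of the 5. Score and region rank thus did not run together among these few positions.

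KLF4, one of the factors that reprogram cells to pluripotency, spans 107484852 to 107489769 on chromosome 9. Its H3K27ac summit at 107581367 scored 4.06 and lay 91.6 kb before the start, inside the noncoding gene LOC105376205, in a region ranked 1223. KLF4 was the nearest protein-coding gene end to it. KLF10, a TGF-beta inducible early gene, spans 102648784 to 102655725 on chromosome 8. Its summit at 102734848 scored 4.01 and lay 79.1 kb from the high-coordinate end, in a region ranked 1310, and KLF10 was again the nearest protein-coding gene end.

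KLF2, a factor of endothelial and T cell quiescence, spans 16324826 to 16328685 on chromosome 19. Its H3K27ac summit at 16426596 scored 4.02, lay 97.9 kb beyond the high-coordinate end and fell inside EPS15L1, an endocytosis adaptor gene. The region there, 441 bases long, had the best rank of the 5, 501 of 2710, or within the best 18.5%. It was also the only one of the 5 whose nearest protein-coding gene end was not that of the KLF gene, and it lay just inside the 100 kb limit. All 5 regions consisted of 1 peak, as did 96.4% of all H3K27ac regions.

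**Figure D4:**
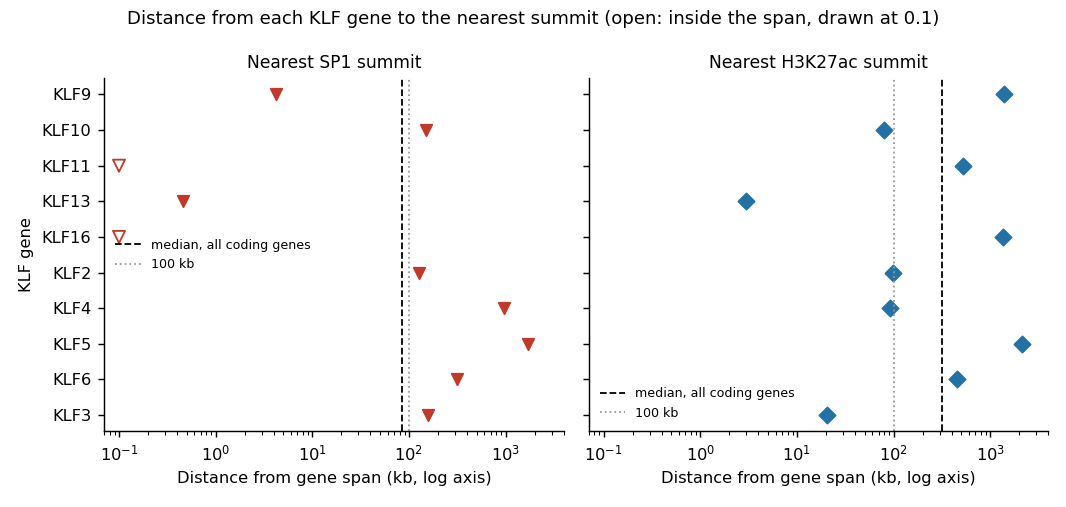
Distance in kb (log axis) from each KLF gene span to the nearest SP1 summit (left) and H3K27ac summit (right), with open marks at the left for a summit inside the span, a dashed line at the median over all protein-coding genes (85.7 and 320 kb) and a dotted line at 100 kb. KLF13 is near both, KLF5 is farthest from both, and KLF9, KLF11 and KLF16 are near SP1 only.

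KLF13 was the 1 gene of 10 with summits of both libraries within 100 kb, against 14.7% of protein-coding genes. Its SP1 and H3K27ac summits were 2528 bases apart. None of the 7 SP1 summits had an H3K27ac summit within 500 bases. The same share over all SP1 summits is not given here, so nothing about KLF genes is read from this. Apart from the pair at KLF13, the SP1 summit closest to an H3K27ac summit was 455 kb from it, the summit beside RRM2. KLF11 itself was 521 kb from H3K27ac, KLF16 1346 kb and KLF9 1391 kb. In the other direction, KLF2 was 127 kb from the nearest SP1 summit, which lay 326 bases from an end of AP1M1, KLF10 was 152 kb away, KLF3 156 kb and KLF4 964 kb.

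KLF5 and KLF6 had no summit of either library within 100 kb, which makes 2 of 10, against 38.1% of protein-coding genes. KLF5, a growth-promoting factor of epithelia, spans 73054976 to 73077538 on chromosome 13. Its nearest SP1 summit was 1694 kb away with a score of 4.34, and its nearest H3K27ac summit 2108 kb away with a score of 5.10. KLF6, a factor with tumour-suppressor activity, spans 3775996 to 3785209 on chromosome 10. It was 317 kb from an SP1 summit of 3.52 and 457 kb from an H3K27ac summit of 7.02, and KLF6 was the nearest protein-coding gene to both. KLF6 had no other protein-coding gene within 100 kb, as had KLF4, and KLF5 had 1. Lists of summits do not show signal below the calling threshold, so a gene without a summit is one where no peak was called.

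**Figure D5:**
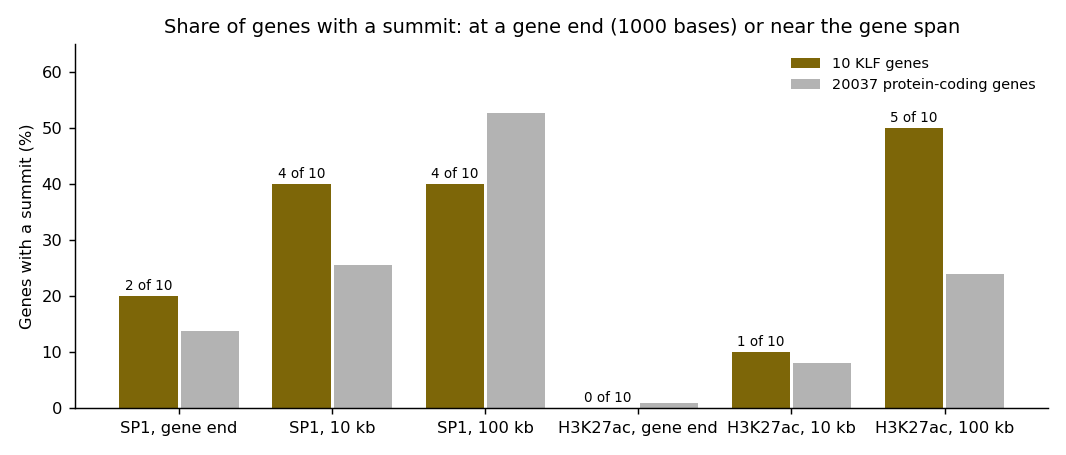
Share of the 10 KLF genes (dark bars, with counts) and of all 20037 protein-coding genes (grey bars) with a summit within 1000 bases of a gene end, or within 10 or 100 kb of the gene span. For SP1 the KLF share is 20%, 40% and 40% against 13.7%, 25.5% and 52.6%, and for H3K27ac it is 0%, 10% and 50% against 0.848%, 7.98% and 24.0%.

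Read by cofactor, a grouping applied after the values were seen, SP1 summits within 10 kb were at 4 of the 5 SIN3A-binding genes, with KLF10 the exception, at 0 of the 4 activators and not at KLF3, against 25.5% of all protein-coding genes. At that share about 1 of 4 genes has such a summit, so the 0 among the activators is close to it. H3K27ac summits within 100 kb were at 2 of 5, 2 of 4 and at KLF3, against 24.0%. In the wider family of 18 KLF genes the count for SP1 within 10 kb was 5, near the share of 25.5%. KLF14, the sixth SIN3A-binding gene, was 1048 kb from an SP1 summit, and KLF1, the erythroid activator, was 3.55 kb from one. The 5 were 4 of 6 SIN3A-binding genes, 1 of 6 activators, 0 of 3 CtBP-binding genes and 0 of the 3 remaining genes KLF15, KLF17 and KLF18. At gene ends the SP1 counts were 2 of 6 SIN3A-binding genes and 0 in each other group, against 13.7%. Within 100 kb they were 4 of 6, 1 of 6, 0 of 3 and 2 of 3 in the same order, against 52.6%. The split by group thus changed with the distance. The groups are small and were formed after the values were seen, so nothing is read from the 4 of 5. No test was run on these counts.

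Related genes were counted in the same way, beside the 13.7% of all protein-coding genes with an SP1 summit at an end. Neither library had a summit at the ends of the 8 other KLF genes, while 3 had an SP1 summit within 100 kb, against 52.6% of all genes, and 3 an H3K27ac summit, against 24.0%. Of the 9 SP genes, 3 carried SP1 at an end: SP1 itself (score 25.7), SP2 (14.1) and SP4 (4.34). Of 10 cofactor genes that KLF proteins use, HDAC1, a histone deacetylase of the SIN3A complex, had one (5.48), while SIN3A, CTBP1 and EP300 did not. Of 15 textbook KLF targets, TGFB1 had one (6.90), and CDKN1A and SMAD7 did not. Among markers of the labelled tissue, 1 of 9 lung epithelium genes (NAPSA, 6.69) and 0 of 5 blood genes carried SP1 at an end. H3K27ac was called at no end of any gene in these lists, so the labelled cell type could not be checked from it. In lists this short, counts of 0 or 1 lie near the 13.7% share or below it, and nothing is read from them.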

How the data were processed

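Files of ranked regions and of summits came from the SP1 and the H3K27ac library. The deposited summit score is a −log10 p-value or perhaps q-value, in the form MACS writes. The deposited region score is a rank, in the form ROSE writes. The submitters' processing notes name hg38, cutadapt 2.5 and deepTools 3.4.1 without their roles. The aligner, caller settings and control were not given in the sources used here. A different depth or control would change which summits were called.

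Distances were taken from the 1-based summit to both ends of the RefSeq span and to the starts in the promoter table, with Python 3.11.15 and pandas 2.3.3. Counts of KLF genes stand beside the share of all protein-coding genes, except where the text says that it is not given. Counts of summits do not stand beside it. Distances and motif counts were checked on simulated data. With 1 library per antibody no test was made. All 10 members are named, with the nearest gene end of each summit and every member of the other lists with a summit at an end. The cofactor groups and single other KLF genes, and the list members named as having none, were chosen after their values were seen. Members and lists were chosen with earlier results of these data known.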

Additional observations from a re-analysis of the deposited data

How the results depend on the processing

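No paired analysis was possible because each antibody had a single library. Of 33 alternative values for 9 counts, 21 were within 1.5 times the reported count or equal to it, and 12 moved. With summits above the upper quartile of their list, 1 KLF gene (KLF13) kept an SP1 summit at an end, and 3 SP1 summits remained within 100 kb of KLF genes. Within 250 kb, 7 KLF genes had an SP1 summit, and the summits numbered 19. For H3K27ac, 2 genes, 2 summits and 2 genes with a region were left within 50 kb, 1 gene and 1 summit with scores above the median, and 0 of each above the upper quartile. CACCC in place of the GC box was in 3 genes. Wider and narrower limits move these counts by construction. No share of all genes stands beside the counts at 250 kb or with score limits. Those counts show only how far the reported ones move. Depth is unknown, so what it limits cannot be given.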
